A study of Mus musculus with 18 samples.

Results

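The genes described here encode the proteasome: 47 genes of the 12697 measured in both tissues, chosen because their names begin with Psma, Psmb, Psmc, Psmd, Psme or Psmg. They comprise 18 genes of the 20S core, 16 of the 19S cap, 7 assembly chaperones and 5 activators. The remaining name, Psmc3ip, belongs to a recombination cofactor that is not a proteasome subunit. Psmd8 and Psmb11 were not analysed here.

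RNA was sequenced from axoplasm, the cytoplasm pressed out of nerve fibres, of C57B6 mice with no stated genetic change. The 6 groups, of 3 libraries each, were the RNA precipitated with rabbit anti-Kif5A, the RNA precipitated with rabbit IgG as the isotype control, and the input axoplasm, each from sciatic nerve and from dorsal root. Each precipitation used about 200 ug of lysate and 10 ug of antibody for 3 h. Every library came from 5 pooled animals, and roots and nerves were taken from the same animals in 3 independent repeats. Kif5A, a heavy chain of kinesin-1, moves cargo along the microtubules of neurons, and the comparisons ask which mRNAs came down with it close to the cell bodies and farther out.

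The proteasome degrades proteins tagged with ubiquitin. Its barrel-shaped core is built of outer alpha rings and inner beta rings, and 3 of the beta subunits cut peptide bonds. The cap binds the ubiquitin chain, removes it and threads the unfolded substrate into the core through a ring of ATPases, while alternative activators open the core without ubiquitin. Neurons need the system in their processes as well as in the cell body, where local degradation shapes synapses and the response of axons to injury.

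Library totals lay between 11584418 and 22580824 counts, of which the proteasome genes held 1318488 over all 18 libraries. Replicate 3 stood apart in every group: within each of the 6 groups the counts of replicates 1 and 2 were closest to each other, with a chi-square per degree of freedom of 16.2 to 279, against 77.7 to 488 for the 12 pairs with replicate 3. Markers of more than axons were present. Summed over 9 genes, myelinating Schwann cell markers reached 17854 to 25373 CPM in the sciatic nerve inputs and 21554 to 28753 CPM in the dorsal root inputs. Over 10 genes, sensory neuron markers reached 1355 to 4401 CPM in the sciatic nerve inputs and 2907 to 3957 CPM in the dorsal root inputs. CPM values are counts brought to a common library total by library size and TMM, a factor per library that puts most genes at a ratio near 1. In such bulk samples, fewer axons and less RNA per axon cannot be told apart.

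The proteasome mRNAs were spread over a wide range in input axoplasm. Per kilobase of transcript, which allows levels to be compared between genes, the catalytic core subunit Psmb6 stood first in both tissues at 501 ± 314 CPM per kb in sciatic nerve and 500.1 ± 82.5 CPM per kb in dorsal root (SD, n = 3 each). The cap subunit Psmd7, a scaffold partner of the deubiquitinase in the lid, came next in sciatic nerve at 324 ± 202 CPM per kb and was the third in dorsal root at 283 ± 8.18 CPM per kb. Psmb3, a structural beta subunit, held the place between them in the other order, at 260.4 ± 142 CPM per kb in sciatic nerve and 284 ± 43.4 CPM per kb in dorsal root. The neighbours Psmd7 and Psmb3 did not differ beyond their SD in either tissue. The chaperone Psmd5 was the lowest proteasome gene, at 0.279 ± 0.0742 CPM per kb in sciatic nerve and 0.229 ± 0.0794 CPM per kb in dorsal root. The median core gene had 91.1 CPM per kb in sciatic nerve inputs and 83.2 CPM per kb in dorsal root inputs, and the median cap gene 20.5 and 15.1 CPM per kb in the same inputs. These levels are of the transcripts counted. In 3 cap genes and 1 core gene, protein-coding transcripts held less than 50% of the counts. The shares were 0% in Psmc5, 13.65% in Psmc3, 41.14% in Psmc4 and 17.88% in the core gene Psmb9. The low places of these genes are thus not levels of their coding mRNA. Core genes have the shorter transcripts, with a median length of 1192 bases against 1715 bases for the cap and 2608 bases for all genes.

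**Figure D1:**
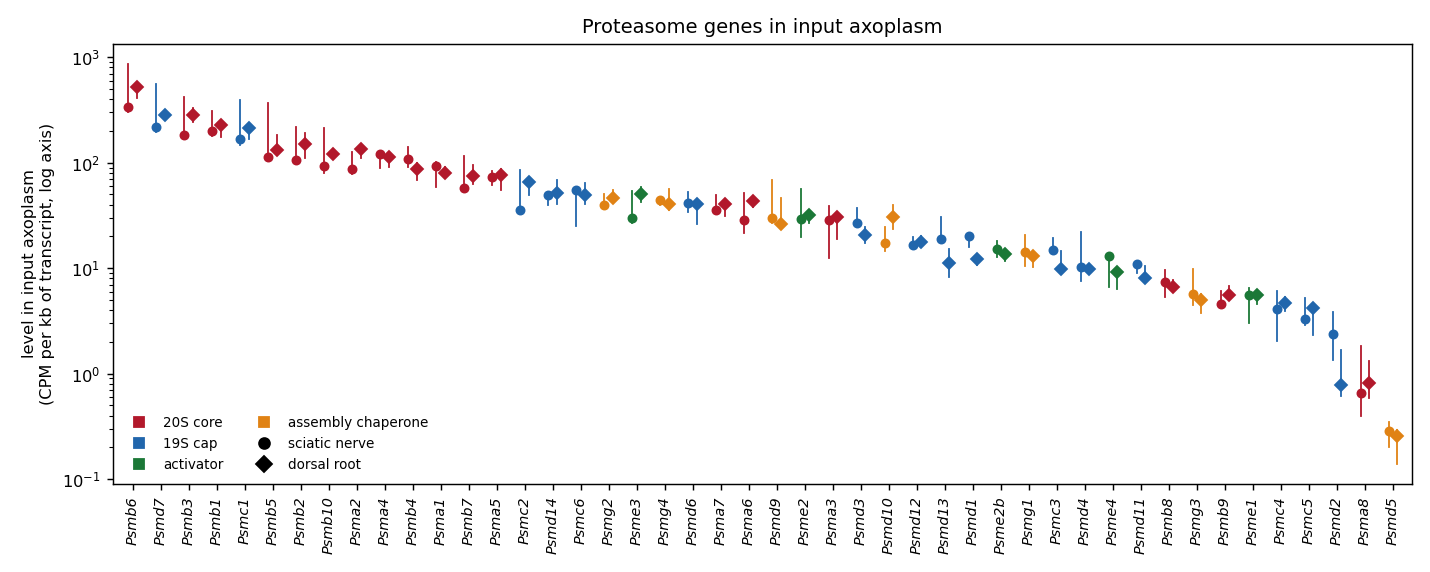
Level of 46 proteasome genes in input axoplasm, in CPM per kilobase of transcript on a log axis, in order of the mean of both tissues. Symbols are medians and lines the range of 3 libraries, circles for sciatic nerve and diamonds for dorsal root. Psmb6 stands at the left end, Psmd5 at the right end, and most core genes lie left of most cap genes. Levels are of the transcripts counted, which for some genes, such as Psmc3 and Psmc5, were mostly not protein-coding.

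Core and cap genes also differ in 1 of 2 short motifs searched in the DNA around their start sites. Promoters from RefSeq (GRCm38.p6, 250 bases before to 50 after the start) were matched for 39 of the 47 genes and searched on both strands for 2 short motifs, neither of which contains the other. TGACNNNGC is the core of the antioxidant response element to which Nfe2l1, an activator of proteasome genes, binds, and CCGGAAG is a form bound by ETS-family factors. CCGGAAG stood in 9 of 13 cap promoters (69.2%) and in 1 of 14 core promoters (7.14%), against 9.93% of 27025 genes with a promoter in the table. TGACNNNGC stood in 2 of 13 cap promoters (15.4%) and 2 of 14 core promoters (14.3%), against 14% of the 27025 genes. The motifs were chosen with the lists of genes in view, so these shares are a description. TGACNNNGC was thus about as frequent in core promoters as in cap promoters and in all genes. As examples, 2 core promoters with TGACNNNGC and 2 cap promoters with CCGGAAG are shown 5′ to 3′ along the gene's strand, motif in capitals. They lie at chr14:54617946-54618245 (Psmb5, minus strand), chr11:70525107-70525406 (Psmb6, plus strand), chr12:100109952-100110251 (Psmc1, plus strand) and chr3:95042565-95042864 (Psmd4, minus strand).
Psmb5: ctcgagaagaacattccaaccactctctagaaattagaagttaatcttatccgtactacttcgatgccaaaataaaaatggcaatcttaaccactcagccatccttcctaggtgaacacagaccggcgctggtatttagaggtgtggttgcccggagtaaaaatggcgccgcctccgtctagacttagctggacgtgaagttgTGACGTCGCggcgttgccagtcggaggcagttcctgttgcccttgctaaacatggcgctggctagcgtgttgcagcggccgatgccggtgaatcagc
Psmb6: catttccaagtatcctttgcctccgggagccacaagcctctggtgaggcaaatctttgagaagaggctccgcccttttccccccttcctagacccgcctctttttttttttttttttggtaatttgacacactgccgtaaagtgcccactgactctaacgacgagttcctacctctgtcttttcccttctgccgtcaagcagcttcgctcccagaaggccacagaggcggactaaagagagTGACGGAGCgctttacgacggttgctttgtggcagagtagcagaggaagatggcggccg
Psmc1: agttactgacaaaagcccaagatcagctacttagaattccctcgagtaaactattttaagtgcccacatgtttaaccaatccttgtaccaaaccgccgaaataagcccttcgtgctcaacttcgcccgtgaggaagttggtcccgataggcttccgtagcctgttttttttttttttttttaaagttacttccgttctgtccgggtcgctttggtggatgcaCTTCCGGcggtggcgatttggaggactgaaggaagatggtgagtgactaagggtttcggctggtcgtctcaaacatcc
Psmd4: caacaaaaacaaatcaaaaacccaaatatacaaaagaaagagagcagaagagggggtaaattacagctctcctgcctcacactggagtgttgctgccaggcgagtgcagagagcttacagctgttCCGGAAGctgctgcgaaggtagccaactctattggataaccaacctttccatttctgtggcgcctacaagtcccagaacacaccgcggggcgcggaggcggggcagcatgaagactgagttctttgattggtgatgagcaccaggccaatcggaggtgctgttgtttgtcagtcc
In Psmc1 the match reads on the other strand, so that its capitals are the reverse complement of the motif.

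Set against input, the balance between core and cap mRNA lay lower in the precipitates of both antibodies. The summed CPM of the core genes over that of the cap genes, not corrected for length, was 1.01, 0.953 and 1.72 in the dorsal root Kif5A precipitates, 0.820, 0.774 and 1.18 in the IgG precipitates and 1.72, 1.82 and 2.01 in the inputs. In sciatic nerve it was 1.35, 1.31 and 1.25 in the Kif5A precipitates, 1.27, 1.43 and 1.12 in the IgG precipitates and 1.71, 1.73 and 1.58 in the inputs. Within each tissue every precipitate lay below every input, except that Kif5A replicate 3 of dorsal root stood level with the lowest input at 1.72. Kif5A and IgG precipitates overlapped in both tissues. The group means were 1.23 ± 0.426 (Kif5A), 0.925 ± 0.222 (IgG) and 1.85 ± 0.147 (input) in dorsal root, and 1.31 ± 0.0492 (Kif5A), 1.27 ± 0.156 (IgG) and 1.67 ± 0.0806 (input) in sciatic nerve (SD, n = 3 each). The ratio is a score over chosen genes and was given no test. Markers of other cells also differed between precipitates and inputs. The myelinating Schwann cell markers summed to 12339.6, 10419.6 and 18715 CPM in the dorsal root Kif5A precipitates, 13699, 10877 and 19808 CPM in the IgG precipitates and 28753, 21554 and 28635 CPM in the inputs, so that every precipitate lay below every input. In sciatic nerve they summed to 3830, 8567 and 21720.3 CPM in the Kif5A precipitates, 5303, 8113 and 22354 CPM in the IgG precipitates and 17854, 21679.6 and 25373 CPM in input, with overlap at replicate 3. Over 6 adipocyte markers the sciatic nerve sums were 54411, 37263 and 5870.3 CPM in the Kif5A precipitates, 83802, 58914 and 26299.5 CPM in the IgG precipitates and 11702, 13915 and 4337 CPM in input, against 125 to 305 CPM in the libraries of dorsal root. The part of these cells in the ratio was not tested.

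**Figure D2:**
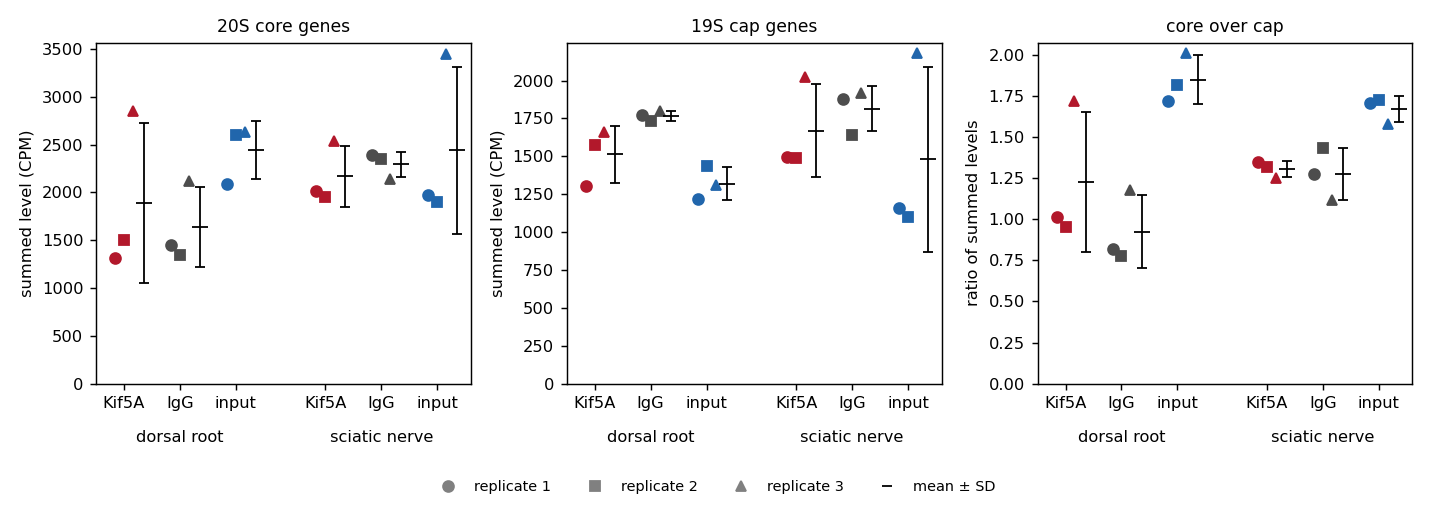
Summed levels of the 18 core genes and the 16 cap genes, in CPM, and the ratio of the sums, for each library by group and tissue. Points are libraries, shaped by replicate number, with the mean and SD beside them; the ratio of the inputs lies between 1.58 and 2.01 and that of the IgG precipitates between 0.774 and 1.43.

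The 2 parts of the ratio behaved differently in the tissues. In dorsal root the core genes summed to 1316, 1502 and 2850.4 CPM in the Kif5A precipitates, 1454, 1341 and 2119.6 CPM in the IgG precipitates and 2089, 2604 and 2631 CPM in the inputs. Cap genes of dorsal root summed to 1302, 1576 and 1659 CPM in the Kif5A precipitates, 1772, 1733 and 1798 CPM in the IgG precipitates and 1217, 1433 and 1311 CPM in the inputs. The cap sums of the IgG precipitates lay above those of all 3 inputs there. The core sum of Kif5A replicate 3 lay above all 3 inputs. In sciatic nerve the sums overlapped between all 3 groups, and input replicate 3 held 3446 CPM of core and 2184 CPM of cap genes, against 1895 to 1975 CPM and 1098 to 1157 CPM in the other inputs. The ratio rests on abundant genes: of the 502196 cap counts Psmd7 held 163243 and Psmc1 138556. By the median gene of each class on a log2(CPM + 1) scale, core minus cap was 1.38 ± 0.515 (Kif5A), 0.982 ± 0.413 (IgG) and 1.47 ± 0.228 (input) in dorsal root. In sciatic nerve it was 1.39 ± 0.417 (Kif5A), 1.06 ± 0.506 (IgG) and 1.10 ± 0.0715 (input). By this measure the groups overlapped in both tissues.

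Gene by gene, core and cap parted in the IgG precipitates of dorsal root. Of the 18 core genes 4 had a positive log2 ratio of IgG over input, with a median of -0.57, and of the 16 cap genes 13 did, with a median of 0.29, against 52.3% of all genes and a median of 0.06. All 6 ATPases of the cap, which unfold the substrate, were positive, from 0.13 (Psmc2) to 1.42 (Psmc4). A retained-intron transcript carried much of the Psmc4 counts, and with protein-coding transcripts alone Psmc4 stood at 0.48 and Psmc5 was not tested. In the same comparison all 4 structural beta subunits were negative, from -1.23 (Psmb3) to -0.63 (Psmb1). Over the 47 genes this log2 ratio rose with transcript length (Spearman rank correlation 0.44). It also did so within the core (0.47) and over all genes tested (0.18), but not within the cap (-0.18). Core genes have the shorter transcripts, and the part of length in the split was not tested. The core median was negative and the cap median positive in all 29 settings tried, the core from -0.82 to -0.33 and the cap from 0.23 to 0.53. Many of these settings left out a single library of a group outside this comparison, which could hardly move the medians. No single proteasome gene passed an adjusted p of 0.05 in edgeR's quasi-likelihood test, in which 1.23% of 12681 genes did. At an unadjusted p under 0.05 there were 2 higher and 5 lower proteasome genes, where 9.12% and 10.3% of all genes stood, and DESeq2 called 1, Psmd10, and 11.3% of all genes. Libraries of IgG and input did not overlap for 7 higher genes, where the share of all genes was 12.3%, and for 13 lower genes, where it was 18.1%.

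Leaving replicate 3 out of every group changed that count. Without it, 10 proteasome genes of dorsal root passed in edgeR, where 12.8% of 12656 genes did. Of these, 7 core genes were lower with IgG than in input, namely Psma2, Psma6, Psmb1, Psmb2, Psmb3, Psmb5 and Psmb6, and 2 cap ATPases, Psmc1 and Psmc6, were higher. The chaperone Psmg4 was lower too. Of these 7 core genes Psma6 differed most (log2 ratio -1.95, SE 0.40, adjusted p = 0.0152), and Psmc6 had a log2 ratio of 0.86, SE 0.19, adjusted p = 0.0209. In the same setting 3 genes of sciatic nerve passed, where 9.67% of all genes did, and all 3 were cap genes that were higher with IgG: Psmc1 at 1.03, Psmc6 at 0.79 and Psmd6 at 1.39 on the log2 scale.

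Kif5A precipitates of dorsal root leaned the same way against the same inputs. Of the core genes 3 of 18 were positive, with a median of -0.23, and of the cap genes 10 of 16, with a median of 0.15, against 52.8% of all genes and a median of 0.06. Here too the ratio rose with transcript length over the 47 genes (Spearman rank correlation 0.27), within the core (0.36) and over all genes tested (0.23). Within the cap it did not (-0.39). All 7 genes of the constitutive alpha ring had a negative ratio and all 6 ATPases a positive one. By its protein-coding transcripts alone, however, Psmc4 was at -0.19. Psmc2 had 71.3, 104 and 199 CPM with Kif5A and 90.7, 128 and 118 CPM in input. Psmc3 had 5.09, 6.95 and 8.49 CPM with Kif5A and 5.31, 7.97 and 5.57 CPM in input. For both, Kif5A replicates 1 and 2 lay below the inputs of equal number. Protein-coding transcripts held 13.65% of the Psmc3 counts and 0% of those of Psmc5. Of all genes 0% passed the adjusted p in edgeR. No proteasome gene had an unadjusted p under 0.05 there, while 8.39% of all genes did, and DESeq2 called 0. Without replicate 3, 1 of 18 core genes was positive, the core median was -0.46, and again 0 proteasome genes passed, while 3.59% of all genes did. With only Kif5A replicate 3 of dorsal root left out the core median was -0.51. Scaled by library size alone, which moved the median of all genes to 0.39, the core median was 0.06 with 10 of 18 genes positive, and the cap median 0.45. Against the inputs of sciatic nerve 7 of 18 core genes were positive, at a median of -0.16, and 9 of 16 cap genes, at a median of 0.12, against 51.1% of all genes. There 0 proteasome genes passed in edgeR, where 0.00789% of all genes did, 2 were higher at an unadjusted p under 0.05, Psmc3ip and Psmb9, as were 2.56% of all genes, and DESeq2 called 0. The Kif5A libraries stood clear above the inputs for 4 proteasome genes, where 8.22% of all genes did, and clear below for 2, where 9.23% did. The core median of sciatic nerve turned positive by library size alone, at 0.02 with 12 of 18 genes positive, without input replicate 3 of sciatic nerve, at 0.29 with 12 of 18, and without replicate 3 of every group, at 0.18 with 13 of 18. These comparisons share their inputs with those of IgG.

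**Figure D3:**
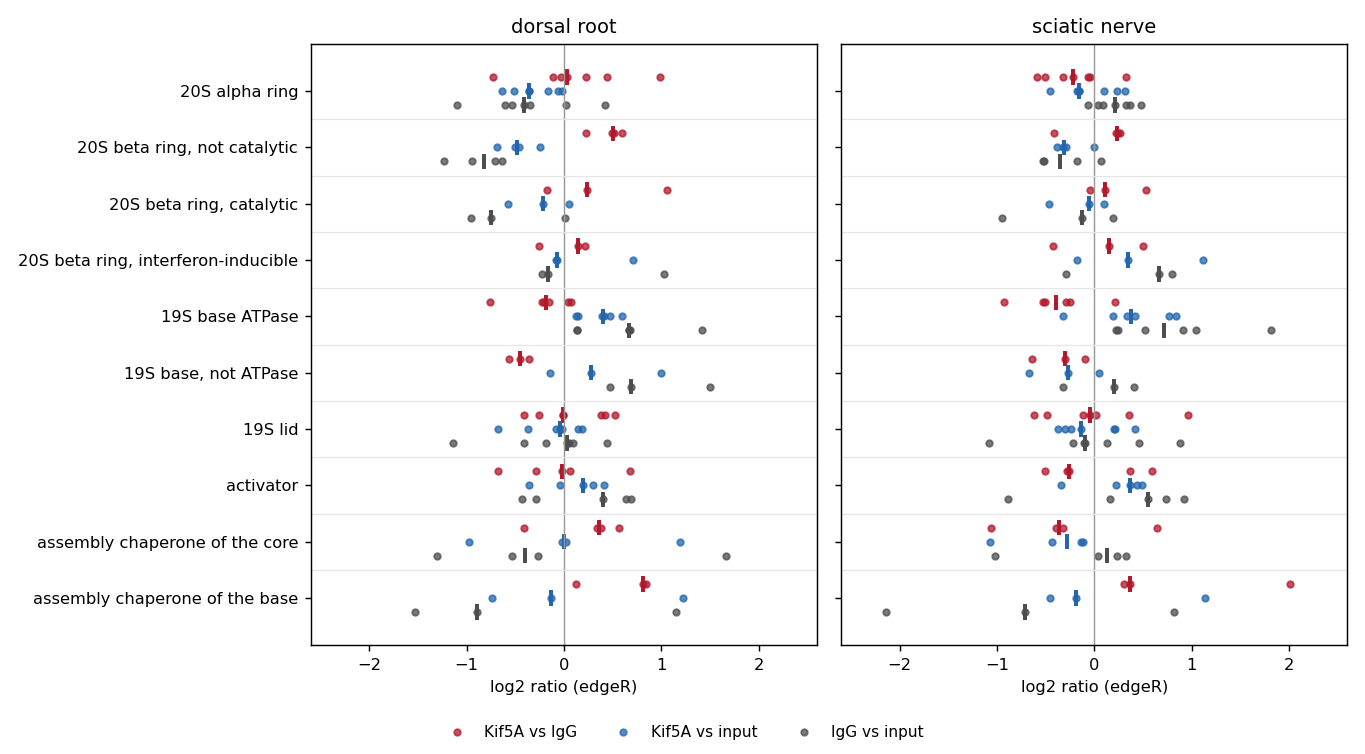
The log2 ratio from edgeR of each proteasome gene, by its role, in dorsal root (left) and sciatic nerve (right), for Kif5A over IgG, Kif5A over input and IgG over input. Points are genes and bars the median of a role; Psma8 and Psmc3ip are not plotted. In dorsal root the 6 cap ATPases lie right of 0 against input with either antibody, and the 4 structural beta subunits left of it. For Psmc2 and Psmc3, however, Kif5A replicates 1 and 2 lay below the inputs of equal number.

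The alpha ring gates the entrance of the core. For Kif5A over input in dorsal root, the 2 smallest p values of the proteasome genes were those of Psma4 and Psma1, both of that ring. Psma4 had 89, 73.9 and 96.4 CPM in the dorsal root Kif5A precipitates and 131, 135 and 106 CPM in the inputs, which did not overlap (log2 ratio -0.52, SE 0.26, adjusted p = 0.648). Psma1 likewise had 53.4, 62.7 and 73.5 CPM in the dorsal root Kif5A precipitates and 89.2, 109 and 96.2 CPM in the inputs, also without overlap (log2 ratio -0.63, SE 0.33, adjusted p = 0.653). Over all proteasome genes of dorsal root the Kif5A libraries stood clear above the inputs for 7 genes, where 15.8% of all genes did, and clear below for 4, where 15.6% did. In sciatic nerve Psma4 had 117, 98.8 and 132 CPM in the Kif5A precipitates, 169, 180.2 and 189 CPM in the IgG precipitates and 142, 144 and 101 CPM in the inputs. There its Kif5A libraries lay below all IgG libraries (log2 ratio -0.59, SE 0.28, adjusted p = 0.629).

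Replicate 3 of the dorsal root Kif5A precipitates was high across the core. It was the highest of its group for 17 of 18 core genes and for 9 of 16 cap genes, against 38.7% of all genes. Among the IgG precipitates of dorsal root, replicate 3 was the highest for 14 of 18 core genes and 5 of 16 cap genes, against 36.6% of all genes. In the sciatic nerve inputs it was the highest for 15 of 18 core genes and 12 of 16 cap genes, against 40.3% of all genes. The dorsal root inputs had replicate 3 highest for 9 of 18 core genes and 4 of 16 cap genes, against 38.5% of all genes. With Kif5A in sciatic nerve it was the highest for 9 of 18 core genes and 8 of 16 cap genes, against 36.2% of all genes, and with IgG for 4 of 18 and 9 of 16, against 34.2%. Sensory neuron markers summed to 1224, 1460.05 and 2936 CPM in the dorsal root Kif5A precipitates, 1298, 1233 and 2473 CPM in the IgG precipitates and 3671, 3957 and 2907 CPM in the inputs. In sciatic nerve they summed to 880, 1032 and 2273 CPM in the Kif5A precipitates, 1470, 1038 and 1912 CPM in the IgG precipitates and 1485, 1355 and 4401 CPM in the inputs. Replicate 3 thus held the most of these markers in every group except the dorsal root inputs, where it held the least. Whether these markers have a part in the levels of core genes was not tested.

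Between Kif5A and IgG, the comparison of the antibody with its isotype control, no proteasome gene passed in either tissue. In dorsal root 0 of 47 passed, as did 0% of all genes. At an unadjusted p under 0.05 there were 3 higher genes, Psmc3ip, Psmb5 and Psma8, and 0 lower, where 4.33% and 1.65% of all genes stood, and DESeq2 called 0. A positive log2 ratio was found for 13 of 18 core genes, which had a median of 0.22, and of the cap genes 5 of 16, with a median of -0.18, against 49.3% of all genes. This direction rested on 1 library: without Kif5A replicate 3 of dorsal root, 4 of 18 core genes were positive, and their median was -0.19. Without replicate 3 of every group 9 of 18 were positive, and the median was 0.01. In sciatic nerve 0 of 47 passed, where 0.0478% of all genes did, 2 were higher at an unadjusted p under 0.05, Psmd9 and Psmc3ip, as were 6.18% of all genes, and DESeq2 called Psmd9, with 3.29% of all genes. Of the core genes 9 of 18 were positive there, with a median of 0.04, and of the cap genes 4 of 16, with a median of -0.27. The Kif5A libraries lay clear above the IgG libraries for 2 proteasome genes of sciatic nerve and 4 of dorsal root, where 9.35% and 7.83% of all genes did. They lay clear below for 8 and 4 genes, where 6.62% and 5.43% of all genes did, and the 8 of sciatic nerve were Psma4, Psmb1, Psmc4, Psmc6, Psmd1, Psmg1, Psmg2 and Psmg4. In the authors' deposited table, where single transcripts were tested, 5 transcripts of proteasome genes in sciatic nerve and 6 in dorsal root had a false discovery rate under 0.05, all higher with Kif5A, against 6.69% and 6.59% of all transcripts listed.

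The difference of the Kif5A over IgG ratio between the tissues reached the threshold for 0 proteasome genes in edgeR and in DESeq2, and for 0.0159% of all genes in edgeR. At an unadjusted p under 0.05 there were 0 proteasome genes and 6.37% of all genes. The smallest p values were those of Psmd6, a lid subunit (difference of log2 ratios, sciatic nerve minus dorsal root, -1.04, adjusted p = 0.899 in edgeR), Psmd9 (1.20, adjusted p = 0.917 in edgeR) and Psma8 (-4.69, adjusted p = 0.952 in edgeR). Psmd6 had 79.8, 65.9 and 61.5 CPM in the sciatic nerve Kif5A precipitates and 123, 144 and 62.7 CPM in the IgG precipitates, and 42.2, 57.8 and 75 CPM in the dorsal root Kif5A precipitates and 32.1, 40.8 and 62.5 CPM in the IgG precipitates, with overlap in both tissues.

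Precipitates of IgG from sciatic nerve differed from input for 1 proteasome gene in edgeR, Psmd9. Of the core genes 10 of 18 were positive there, with a median of 0.05, and of the cap genes 11 of 16, with a median of 0.24, against 50.6% of all genes. All 6 ATPases were again positive, from 0.22 (Psmc3) to 1.82 (Psmc4), but only Psmc4 and Psmc6 lay clear of all inputs. Psmc5 had 3.70, 6.59 and 22.5 CPM with IgG and 4.01, 4.57 and 7.28 CPM in input. Protein-coding transcripts held 0% of its counts. Of the 260, 477 and 287 counts of Psmc4 in these IgG libraries 139, 343 and 159 belonged to a retained-intron transcript, against 35, 7 and 25 of 69, 27 and 128 counts in the inputs. With protein-coding transcripts alone Psmc4 had a log2 ratio of 0.66, SE 0.76, adjusted p = 0.691 (edgeR). The IgG libraries stood clear above input for Psma4, Psmc4 and Psmc6, where 9.89% of all genes did, and clear below for Psmd9 and Psmg3, where 14.2% did.

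Psmd9, a chaperone that helps assemble the ATPase ring, was the one proteasome gene to pass in edgeR in any of the 8 comparisons. It lies on chromosome 5 (123169413 to 123250131, plus strand, GENCODE M21 on GRCm38) and was counted through 1 protein-coding transcript. It had 69.5, 81.7 and 134 CPM in the sciatic nerve Kif5A precipitates, 39.2, 19 and 15.3 CPM in the IgG precipitates and 69.6, 77.4 and 177 CPM in the inputs. The IgG libraries lay below all Kif5A and all input libraries, and Kif5A and input overlapped. IgG was lower than input (log2 ratio -2.14, SE 0.48, adjusted p = 0.0268, edgeR), where 2.37% of 12681 genes were called lower, and DESeq2 also called it, with Psmc4 (higher) and 11.2% of all genes. Kif5A exceeded IgG without passing (log2 ratio 2.01, SE 0.48, adjusted p = 0.189, edgeR), while DESeq2 and the authors' deposited table called it, the table with a log2 fold change of 1.93 and a false discovery rate of 0.00474. The call against input was lost without IgG replicate 2, without input replicate 2 or 3, without replicate 1, 2 or 3 of every group, and with only the 6 libraries compared, and adjusted p ran from 0.000339 to 0.241 over the alternatives.

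In dorsal root Psmd9 had 52.7, 62.1 and 117 CPM in the Kif5A precipitates, 42, 57.7 and 37.8 CPM in the IgG precipitates and 68.7, 66 and 119.8 CPM in the inputs. The Kif5A and IgG libraries overlapped there (log2 ratio 0.81, SE 0.46, adjusted p = 0.979), and so did Kif5A and input, while IgG lay below all inputs. Psmd10, the oncoprotein gankyrin and another chaperone of the same ring, had 26.4, 28.7 and 25.2 CPM in the dorsal root Kif5A precipitates, 18.6, 10.1 and 17.7 CPM in the IgG precipitates and 43.2, 56.9 and 33.5 CPM in the inputs. Its IgG libraries were the lowest, its inputs the highest and its Kif5A libraries between them, with no overlap (log2 ratio -1.53, SE 0.45, adjusted p = 0.0783 for IgG over input in edgeR). Kif5A over input gave a log2 ratio of -0.74, SE 0.44, adjusted p = 0.704.

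**Figure D4:**
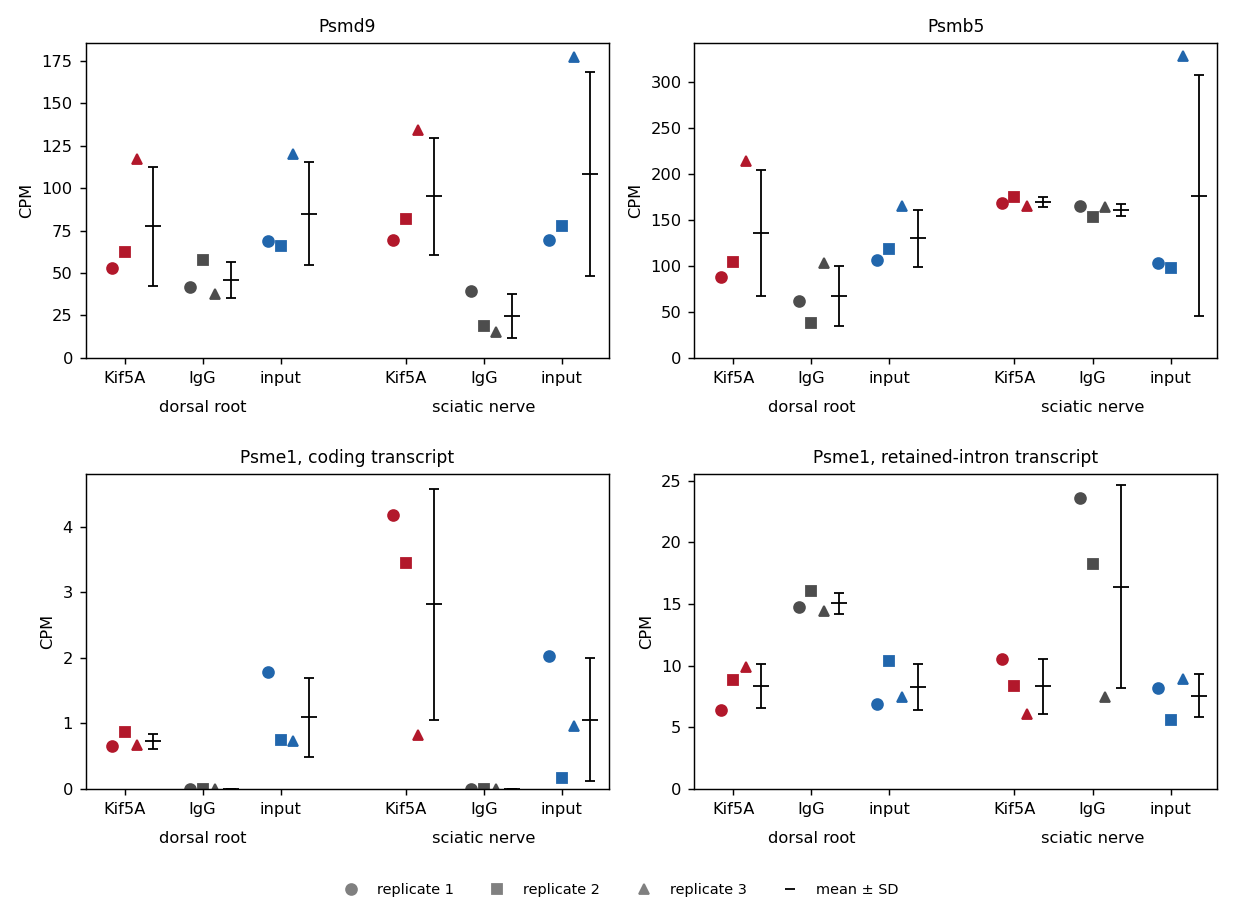
Levels in CPM of Psmd9 and Psmb5 and of the coding and the retained-intron transcript of Psme1, for each library by group and tissue, with the mean and SD beside the points. Psmd9 of the sciatic nerve IgG precipitates lies between 15.3 and 39.2 CPM, and the coding transcript of Psme1 is at 0 in all 6 IgG precipitates.

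None of the 3 constitutive catalytic subunits passed in edgeR in the 8 comparisons. Psmb5, which carries the chymotrypsin-like activity targeted by bortezomib, had 88.6, 104 and 214 CPM in the dorsal root Kif5A precipitates, 61.5, 37.8 and 103 CPM in the IgG precipitates and 107, 119 and 166 CPM in the inputs. Only replicate 3 of IgG reached the Kif5A libraries, which overlapped the inputs in turn (log2 ratio 1.06, SE 0.40, adjusted p = 0.689 for Kif5A over IgG, edgeR). The authors' deposited table gave this transcript a log2 fold change of 1.04 and a false discovery rate of 0.0244. In sciatic nerve it had 169, 175 and 165 CPM in the Kif5A precipitates, 165, 154 and 165 CPM in the IgG precipitates and 103, 98.4 and 328 CPM in the inputs, where all 6 precipitates fell between the inputs of replicates 1 and 2 and that of replicate 3 (log2 ratio 0.12, SE 0.39, adjusted p = 0.985 for Kif5A over IgG, edgeR).

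Psmb6, with the caspase-like activity, had 165, 188 and 437 CPM in the dorsal root Kif5A precipitates, 214, 183 and 301 CPM in the IgG precipitates and 318, 444 and 412 CPM in the inputs. Its IgG libraries lay below all inputs (log2 ratio -0.75, SE 0.43, adjusted p = 0.351, edgeR), and Kif5A overlapped both. In sciatic nerve it had 289, 213 and 348 CPM in the Kif5A precipitates, 271, 205 and 134 CPM in the IgG precipitates and 265, 236 and 677 CPM in the inputs, with overlap of all groups (log2 ratio -0.95, SE 0.43, adjusted p = 0.237 for IgG over input, edgeR). Psmb7, with the trypsin-like activity, had 50.3, 65.3 and 119 CPM in the dorsal root Kif5A precipitates, 72.9, 92.4 and 109 CPM in the IgG precipitates and 73.7, 86.9 and 112 CPM in the inputs. In sciatic nerve Psmb7 had 87.2, 74.3 and 127 CPM in the Kif5A precipitates, 171, 64.3 and 73 CPM in the IgG precipitates and 65.8, 67.5 and 136 CPM in the inputs. All groups of Psmb7 overlapped, and its log2 ratios in the 8 comparisons lay between -0.22 and 0.19.

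Interferon replaces these subunits by Psmb8, Psmb9 and Psmb10 to make the immunoproteasome, which cuts peptides for antigen presentation. Psmb10, the counterpart of Psmb7, had 117, 109 and 233 CPM in the dorsal root Kif5A precipitates, 152, 102 and 157 CPM in the IgG precipitates and 157, 164 and 160.1 CPM in the inputs. The only libraries of dorsal root that stood apart were those of IgG, which lay below all inputs by a small margin (log2 ratio -0.23, SE 0.46, adjusted p = 0.824, edgeR). In sciatic nerve Psmb10 had 136, 143 and 171 CPM in the Kif5A precipitates, 46.5, 154 and 214 CPM in the IgG precipitates and 121, 105 and 282 CPM in the inputs, and all groups overlapped. Psmb10 over Psmb7 gave a ratio of CPM values, not corrected for length, of 1.56, 1.92 and 1.34 in the sciatic nerve Kif5A precipitates, 0.272, 2.40 and 2.93 in the IgG precipitates and 1.85, 1.55 and 2.07 in the inputs. The IgG libraries spanned the widest range, and their replicate 1 lay far below every other library.

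Psmb8, the counterpart of Psmb5, had 9.36, 7.18 and 15.2 CPM in the dorsal root Kif5A precipitates, 10.4, 9.14 and 10.4 CPM in the IgG precipitates and 9.77, 11 and 12.7 CPM in the inputs. Sciatic nerve showed 16.4, 14.4 and 16.2 CPM in the sciatic nerve Kif5A precipitates, 20.1, 14 and 30.4 CPM in the IgG precipitates and 12.3, 8.71 and 15.9 CPM in the inputs. The groups overlapped in both tissues, and no ratio passed (adjusted p from 0.394 to 1.00 in edgeR over the 8 comparisons).

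Psmb9, the counterpart of Psmb6, was above input with either antibody in dorsal root when all its transcripts were added up. It had 15.5, 9.59 and 13.4 CPM in the dorsal root Kif5A precipitates, 12.3, 18.6 and 17 CPM in the IgG precipitates and 6.42, 8.03 and 9.02 CPM in the inputs. Every precipitate of dorsal root lay above every input, Kif5A (log2 ratio 0.71, SE 0.52, adjusted p = 0.783, edgeR) and IgG (log2 ratio 1.03, SE 0.53, adjusted p = 0.292, edgeR) alike. In sciatic nerve it had 20.6, 16.2 and 10.2 CPM in the Kif5A precipitates, 15.8, 11.3 and 7.13 CPM in the IgG precipitates and 5.86, 5.61 and 10.2 CPM in the inputs, where Kif5A stood clear of input by a narrow gap (log2 ratio 1.12, SE 0.53, adjusted p = 0.82, edgeR) and IgG overlapped it. Only 17.9% of the counts of Psmb9 came from its protein-coding transcript. Its counts in dorsal root were 35, 31 and 34 with Kif5A, 8, 21 and 53 with IgG and 14, 32 and 26 in input. These groups overlapped. The main retained-intron transcript had 207, 114 and 165 counts there with Kif5A, 87, 205 and 191 with IgG and 54, 61 and 62 in input. In sciatic nerve this retained-intron transcript averaged 8.74 ± 4.49 CPM in the Kif5A precipitates, 4.89 ± 3.37 CPM in the IgG precipitates and 3.37 ± 2.03 CPM in input (SD, n = 3 each). Of the 8 measured genes of interferon signalling and antigen presentation, 6 were positive for Kif5A over input and 8 for IgG over input in sciatic nerve, with 0 and 1 called, where 0.00789% and 3.74% of all genes were called and 51.1% and 50.6% were positive. In dorsal root 4 of the 8 were positive with either antibody, where 52.8% (Kif5A) and 52.3% (IgG) of all genes were. Summed, the 8 genes reached 7758, 5192 and 3309.9 CPM in the sciatic nerve Kif5A precipitates, 11888, 8017 and 5095 CPM in the IgG precipitates and 4744, 5059 and 3624 CPM in the inputs. In dorsal root they summed to 2825, 2640.4 and 3747 CPM in the Kif5A precipitates, 3575, 3168 and 4038 CPM in the IgG precipitates and 4719, 4654 and 4899 CPM in input. The sums of dorsal root were thus lower in every precipitate than in every input. Those of sciatic nerve overlapped between Kif5A and input, while all IgG sums lay above all inputs there, replicate 3 by a small margin (5095 CPM against an input of 5059 CPM).

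The activator genes showed how much rests on the transcript counted. Psme1, a subunit of the interferon-inducible activator PA28, lies on chromosome 14 (55578123 to 55581529, plus strand, GENCODE M21 on GRCm38), and 2 of its 13 annotated transcripts were measured in both tissues. Of its 3673 counts 301 belonged to the coding transcript and the others to one that retains introns. The letters at the end of an exon and the start of the next in the coding transcript are shown with those of the retained transcript, in which an intron of 143 bases (chr14:55579628-55579770, plus strand) stays in; capitals mark intron bases.
Psme1 spliced junction: gacctgtgtagcaagacagagaacctgctt
Psme1 retained intron: gacctgtgtagcaagGTAAGACCTAACTCA
The sources used here do not say how reads of the shared exons were divided between them.

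The coding transcript was absent from the counts of IgG. It had 0.657, 0.861 and 0.673 CPM in the dorsal root Kif5A precipitates, 0, 0 and 0 CPM in the IgG precipitates and 1.79, 0.753 and 0.729 CPM in the inputs. The sciatic nerve values were 4.18, 3.44 and 0.827 CPM in the sciatic nerve Kif5A precipitates, 0, 0 and 0 CPM in the IgG precipitates and 2.03, 0.172 and 0.967 CPM in the inputs. All 6 IgG precipitates were at 0 and all 12 other libraries above it. With 3 counts over the group as the floor of IgG, Kif5A was at least 59.8-fold higher in sciatic nerve (154 counts against 0) and at least 11-fold higher in dorsal root (40 counts against 0). Input was likewise at least 24.1-fold higher than IgG in sciatic nerve and at least 17-fold higher in dorsal root. These bounds cover counting error only, and a model of the protein-coding transcripts alone, chosen after seeing the data, gave Kif5A over IgG an adjusted p of 0.140 in sciatic nerve and 0.403 in dorsal root in edgeR. The authors' deposited table gave this transcript a false discovery rate of 0.0011 in sciatic nerve and 0.0030 in dorsal root.

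The retained-intron transcript of Psme1 went the other way. In dorsal root it had 6.4, 8.84 and 9.88 CPM in the Kif5A precipitates, 14.8, 16 and 14.4 CPM in the IgG precipitates and 6.92, 10.4 and 7.43 CPM in the inputs, and IgG lay above all other libraries. For sciatic nerve the values were 10.6, 8.39 and 6.09 CPM in the sciatic nerve Kif5A precipitates, 23.6, 18.2 and 7.45 CPM in the IgG precipitates and 8.2, 5.61 and 8.93 CPM in the inputs, and IgG replicate 3 fell among the other groups. With both transcripts added up, Psme1 as a gene had 7.06, 9.71 and 10.6 CPM in the dorsal root Kif5A precipitates, 14.8, 16 and 14.4 CPM in the IgG precipitates and 8.71, 11.2 and 8.16 CPM in the inputs. The gene sum in sciatic nerve was 14.7, 11.8 and 6.91 CPM in the sciatic nerve Kif5A precipitates, 23.6, 18.2 and 7.45 CPM in the IgG precipitates and 10.2, 5.78 and 9.89 CPM in the inputs. As a gene Psme1 gave a log2 ratio of -0.50, SE 0.61, adjusted p = 0.946 for Kif5A over IgG in sciatic nerve and a log2 ratio of -0.68, SE 0.61, adjusted p = 1.00 in dorsal root (edgeR), opposite in sign to its coding transcript.

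Psme2, the partner of Psme1 in PA28, had 31.5, 17.3 and 22.7 CPM in the sciatic nerve Kif5A precipitates, 19.5, 16.8 and 12.8 CPM in the IgG precipitates and 23.9, 16.9 and 49.8 CPM in the inputs. In dorsal root it had 17.7, 15.3 and 29.1 CPM in the Kif5A precipitates, 22.8, 21 and 21.6 CPM in the IgG precipitates and 28.3, 29.3 and 22.3 CPM in the inputs. All groups of Psme2 overlapped, and its near copy Psme2b on chromosome 11 makes the split of reads between them uncertain. Psme4, the nuclear activator PA200, had 91.4, 109 and 61.1 CPM in the sciatic nerve Kif5A precipitates, 64.7, 99.98 and 155 CPM in the IgG precipitates and 81.1, 76.8 and 34.5 CPM in the inputs. In dorsal root Psme4 had 62.3, 66.7 and 45.5 CPM in the Kif5A precipitates, 44.5, 101 and 75.8 CPM in the IgG precipitates and 38.3, 47 and 56.6 CPM in the inputs, again with overlap. Over the 5 activators 2 were positive for Kif5A over IgG in either tissue, and 0 were called by edgeR in the 8 comparisons with all libraries and the transcripts common to both tissues.

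In the cap, the ubiquitin receptor Psmd4 and the deubiquitinase Psmd14 act on the tag itself. Psmd4 had 16, 18.6 and 18.3 CPM in the dorsal root Kif5A precipitates, 27, 26.3 and 16.9 CPM in the IgG precipitates and 14.9, 15.3 and 13.5 CPM in the inputs. Both kinds of precipitate lay above all inputs (Kif5A over input log2 ratio 0.27, SE 0.52, adjusted p = 0.949, IgG over input log2 ratio 0.68, SE 0.52, adjusted p = 0.488, edgeR). Protein-coding transcripts held 66.2% of the Psmd4 counts, and these transcripts overlapped between Kif5A and input. The larger had 119, 179 and 210 counts with Kif5A and 127, 125 and 124 in input. The smaller had 61, 59 and 64 with Kif5A and 77, 61 and 37 in input. In sciatic nerve Psmd4 had 28.6, 13.9 and 20.7 CPM in the Kif5A precipitates, 41.1, 15.1 and 13.8 CPM in the IgG precipitates and 16, 12 and 32.9 CPM in the inputs, where the groups overlapped. Psmd14 had 94.4, 87 and 100.5 CPM in the sciatic nerve Kif5A precipitates, 142, 88 and 59.1 CPM in the IgG precipitates and 75.8, 59.1 and 76.2 CPM in the inputs. There Kif5A lay above input and overlapped IgG (log2 ratio 0.42, SE 0.39, adjusted p = 0.956 for Kif5A over input, edgeR). In dorsal root Psmd14 had 79.5, 99.5 and 62.7 CPM in the Kif5A precipitates, 127, 88.1 and 38.2 CPM in the IgG precipitates and 79.9, 106 and 62 CPM in the inputs, with overlap of all groups.

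Genes with few counts gave the largest ratios. Psmc3ip, the recombination cofactor, was counted in both tissues through a retained-intron transcript alone. It had 0.75, 1.04 and 0.709 CPM in the sciatic nerve Kif5A precipitates, 0.0486, 0.0488 and 0 CPM in the IgG precipitates and 0.0617, 0 and 0 CPM in the inputs. In dorsal root it had 0.492, 0.574 and 0.414 CPM in the Kif5A precipitates, 0, 0 and 0 CPM in the IgG precipitates and 0.112, 0.502 and 0.398 CPM in the inputs. Kif5A lay above every IgG library in both tissues, at 46 counts against 2 in sciatic nerve, a ratio of 26.8 with an exact 95% Poisson interval of 7.01 to 228, and at 27 counts against 0 in dorsal root, at least 7.43-fold higher with 3 counts over the group as the floor. Neither passed in edgeR (adjusted p = 0.206 in sciatic nerve and 0.393 in dorsal root). Both ratios are of that transcript alone. The dorsal root table lists a further transcript of Psmc3ip, with 17, 11 and 19 counts with Kif5A, 0, 55 and 0 with IgG and 7, 4 and 8 in input, and with all transcripts of each table the log2 ratio of Kif5A over IgG was -0.01 in dorsal root (adjusted p = 1.00 in edgeR) and 4.47 in sciatic nerve (adjusted p = 0.535 in edgeR). Psma8, an alpha subunit of the testis, had 1.31, 1.21 and 2.59 CPM in the dorsal root Kif5A precipitates, 0.0668, 0.0768 and 0 CPM in the IgG precipitates and 2.23, 1.38 and 0.995 CPM in the inputs, where IgG held 2 counts and Kif5A 95, a ratio of 39.2 with an interval of 10.6 to 329. Of sciatic nerve, Psma8 had 1.5, 0.33 and 0 CPM in the sciatic nerve Kif5A precipitates, 1.46, 0 and 0 CPM in the IgG precipitates and 0.678, 1.12 and 3.13 CPM in the inputs, with overlap of all groups, and reads of its near copy Psma7 could bear on these counts. Psmg4, a chaperone of the alpha ring, had 5.93, 10.8 and 17.2 CPM in the sciatic nerve Kif5A precipitates, 33.2, 18.4 and 21.4 CPM in the IgG precipitates and 24.5, 21.8 and 24.9 CPM in the inputs. Kif5A lay below all other libraries of Psmg4 there (log2 ratio -1.07, SE 0.65, adjusted p = 0.875 for Kif5A over input, edgeR).

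Between the inputs of the tissues, the proteasome genes did not exceed the shares of all genes. The 3 smallest p values among them were those of cap genes. Of the 46 genes tested 0 passed in edgeR, where 4.12% of 12215 genes did, 3 were higher in sciatic nerve at an unadjusted p under 0.05, as were 7.62% of all genes, and DESeq2 called 0. Psmd13, a lid subunit, had 36.9, 33.5 and 59.8 CPM in the sciatic nerve inputs and 16, 21.6 and 29.3 CPM in the dorsal root inputs (log2 ratio 0.98, SE 0.34, adjusted p = 0.201, edgeR). Psmd1, a scaffold of the base, had 47.7, 59.8 and 59.8 CPM in the sciatic nerve inputs and 36.2, 37.5 and 32.6 CPM in the dorsal root inputs (log2 ratio 0.67, SE 0.24, adjusted p = 0.205, edgeR). Its partner Psmd2 had 2.28, 3.28 and 6.65 CPM in the sciatic nerve inputs and 1.4, 2.26 and 1.26 CPM in the dorsal root inputs (log2 ratio 1.33, SE 0.58, adjusted p = 0.335, edgeR). The sciatic nerve inputs lay above all dorsal root inputs for these 3 genes and Psmd3, and below for none of the genes tested, where 9.97% of all genes lay above and 11.1% below.

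This comparison depended on 1 library. Without replicate 3 of the sciatic nerve inputs 9 proteasome genes passed in edgeR, where 20.6% of 12330 genes did, and without replicate 3 of both tissues 13 did, where 28.7% of 12243 genes passed. In that setting 10 of the 13 were lower in sciatic nerve, 5 of them core genes, of which Psmb6 had a log2 ratio of -0.64, SE 0.16, adjusted p = 0.00611 and Psma2 a log2 ratio of -0.64, SE 0.15, adjusted p = 0.00405, and the 3 higher ones were Psme4, Psmd13 and Psmd1. Replicate 3 was also the sciatic nerve input with the most sensory neuron marker counts, given above, and the fewest of fibroblasts, at 20428, 23006 and 8748 CPM summed over 7 markers in replicates 1 to 3. The part of those cells in the result was not tested.

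Partners of the proteasome were read from a list of 20 measured genes, with 6 genes of ubiquitin and its activating enzymes beside it. None of the 26 passed in any of the 8 comparisons in edgeR. Pomp, the chaperone that completes the core, had 193, 246 and 507 CPM in the dorsal root Kif5A precipitates, 252, 211 and 496 CPM in the IgG precipitates and 716, 863 and 528 CPM in the inputs. Its 6 precipitates all lay below its inputs (Kif5A over input log2 ratio -1.16, SE 0.38, adjusted p = 0.397, IgG over input log2 ratio -1.14, SE 0.38, adjusted p = 0.117, edgeR), in the direction of the core genes. In sciatic nerve Pomp had 243, 357 and 464 CPM in the Kif5A precipitates, 435, 419 and 351 CPM in the IgG precipitates and 580.3, 498 and 751 CPM in the inputs, again below all inputs. Ubb, a polyubiquitin gene, had 530.5, 725 and 1101 CPM in the dorsal root Kif5A precipitates, 663, 746 and 1337 CPM in the IgG precipitates and 1957, 2377 and 1283 CPM in the inputs, where Kif5A lay below all inputs (log2 ratio -1.25, SE 0.35, adjusted p = 0.314 for Kif5A over input, edgeR) and IgG replicate 3 reached them.

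Nfe2l1, the activator of proteasome genes named above, had 5.06, 14.9 and 16.1 CPM in the sciatic nerve Kif5A precipitates, 8.8, 9.67 and 29.3 CPM in the IgG precipitates and 12.9, 12.8 and 21 CPM in the inputs. In dorsal root it had 3.67, 3.68 and 10.9 CPM in the Kif5A precipitates, 3.41, 1.996 and 10.2 CPM in the IgG precipitates and 8.43, 6.4 and 5.77 CPM in the inputs. Between the inputs it was higher in sciatic nerve without overlap but did not pass (log2 ratio 1.20, SE 0.36, adjusted p = 0.131, edgeR), as was Vcp, the ATPase that extracts ubiquitinated proteins (log2 ratio 0.78, SE 0.21, adjusted p = 0.0893, edgeR). Psmf1, an inhibitor of the core, had 1.06, 1.6 and 5.79 CPM in the sciatic nerve Kif5A precipitates, 2.67, 1.71 and 6.17 CPM in the IgG precipitates and 2.84, 1.98 and 8.13 CPM in the inputs. In dorsal root Psmf1 had 5.8, 3.5 and 7.19 CPM in the Kif5A precipitates, 10.4, 2.99 and 3.33 CPM in the IgG precipitates and 4.8, 4.9 and 4.44 CPM in the inputs, with overlap of all groups. Between Kif5A and IgG the smallest p of the list belonged in sciatic nerve to Txnl1 (log2 ratio -0.71, SE 0.32, adjusted p = 0.562, edgeR), a thioredoxin-like protein of the cap, and in dorsal root to Rps27a (log2 ratio -0.87, SE 0.57, adjusted p = 1.00, edgeR), which encodes ubiquitin fused to a ribosomal protein. Adrm1, another ubiquitin receptor, was not analysed here.

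Transcripts that retain introns took a small share of the proteasome counts, and a larger one in the IgG precipitates of dorsal root. There they held 3.49%, 2.75% and 2.37% of the counts of proteasome genes with Kif5A, 8.31%, 4.94% and 2.74% with IgG and 2.63%, 2.43% and 1.89% in input. In sciatic nerve they held 3.23%, 3.22% and 1.79% with Kif5A, 3.38%, 3.49% and 2.16% with IgG and 2.50%, 2.76% and 2.09% in input. All 3 IgG libraries of dorsal root lay above all inputs. Protein-coding transcripts made up 96.5% of all counts of the 47 genes. In 7 genes other transcripts held most of the counts, among them those of the ATPases Psmc3, Psmc4 and Psmc5, and 20.9% of all genes were in that state.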

How the data were processed

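Per the labels, SMART-Seq v4 libraries, a PCR-amplified full-length cDNA method for little RNA, were made from 18 samples. Each tissue has 1 deposited table, with raw counts of reads on Ensembl transcripts. Per the file headers, it also holds log2 fold changes of the authors with a p-value and a false discovery rate for each. CASAVA 1.8.2, edgeR and the mouse build mm10 (GRCm38) are named in the submitters' processing notes. The aligner, the counter, the annotation and any use of strand are not stated in the sources used here, so reads of overlapping, antisense or near-identical genes may be misassigned.

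Counts were added up by gene name over the 16878 named transcripts present in both tables (12697 genes, 93 transcripts for the 47 proteasome genes). Rows without a gene name held 0.138% to 0.237% of a library's counts and were left out. Library sizes were the totals over all named rows, within each tissue's table.

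Groups were compared in R 4.3.3 with edgeR 4.0.16 (robust quasi-likelihood test, TMM, default filter on low counts). The 12 precipitates were fitted for Kif5A against IgG and its difference between tissues, all 18 libraries where input was the reference, and only the 6 inputs for sciatic nerve against dorsal root. Two-sided p-values were adjusted by Benjamini and Hochberg over all genes tested, with a threshold of 0.05. Standard errors (SE) come from that test. DESeq2 1.42.0 was an alternative, and both tools were tested on simulated data. Bounds and Poisson intervals cover counting error only: no molecular identifiers were stated, and PCR copies of a molecule are not independent. The main fits took the numbers of the replicates as names only and did not pair the libraries, as the labels do not state a pairing. Each of the 3 pairs of equal number had a correlation of deviations over 0.1 for the inputs of the tissues (0.150 to 0.403). The same held for Kif5A against input in sciatic nerve (0.101 to 0.346). A block by replicate number, tried as an alternative, changed no count of calls in these comparisons.

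The genes described, the lists and the rule for named genes were chosen with earlier results of these data known. Values in every library are given for 11 catalytic, ubiquitin-handling and activator genes and, per comparison, for each gene past the threshold or else the 3 with the smallest p.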

Additional observations from a re-analysis of the deposited data

Results flagged for a closer look

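A transcript of Psmd14, the deubiquitinase of the cap, that was listed for dorsal root alone and so took no part in the comparisons had 43 counts over the 3 Kif5A precipitates, 0 over the IgG precipitates and 12 over the inputs. By library these were 16, 15 and 12 counts with Kif5A, 0 in each IgG library and 2, 10 and 0 in input. A transcript of Psme4, the activator PA200, listed for sciatic nerve alone, had 37 counts over the Kif5A precipitates, 14 over the IgG precipitates and 47 over the inputs. By library these were 6, 12 and 19 with Kif5A, 7, 7 and 0 with IgG and 13, 17 and 17 in input. Kif5A replicate 1 thus exceeded IgG only once scaled by library total. Both drew attention because data outside the main measurement exceeded the isotype control in CPM, and neither was tested here. For Kif5A over IgG the authors' deposited table gave a false discovery rate of 0.00339 for the Psmd14 transcript and 0.607 for that of Psme4.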

How the results depend on the processing

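Counts of proteasome genes past the threshold moved with the tool and the libraries. For Kif5A against IgG in sciatic nerve DESeq2 called 1 gene, against 0 in edgeR. For IgG against input in dorsal root edgeR called 0, DESeq2 1, and edgeR 1 each with library size alone, with protein-coding transcripts alone and with the replicate block (Psmc3ip). For IgG against input in sciatic nerve edgeR called 1, DESeq2 2, and edgeR 2 each with protein-coding transcripts alone and with the replicate block, and 0 with only the 6 libraries compared. Leaving out libraries gave 0 to 10 calls for IgG against input in dorsal root, 0 to 3 in sciatic nerve and 0 to 13 between the inputs of the tissues, with the highest count in each case without replicate 3 of every group. Between the inputs Psmb6 ran from -0.64 (adjusted p = 0.028 in edgeR, without replicate 3 of sciatic nerve) to 0.39 and Psmb10 from -0.53 (adjusted p = 0.00847 in edgeR, without replicate 3 of both tissues) to 0.37. With protein-coding transcripts alone the IgG over input ratio of Psme1 was negative, at -7.23 in sciatic nerve and -7.28 in dorsal root, since its retained-intron transcript was left out. The cause of the other moves was not tested. The labels do not tie equal replicate numbers to the same animals. The main fits took the numbers as names only, also in the 2 comparisons whose libraries of equal number were correlated.

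The core to cap ratio is on another scale by the median gene. There 2 to the power of the difference of log2(CPM + 1) medians, averaged over libraries, was 2.70 (Kif5A), 2.17 (IgG) and 2.14 (input) in sciatic nerve. In dorsal root it was 2.72 (Kif5A), 2.03 (IgG) and 2.8 (input). The order of groups differed from that of the sums in sciatic nerve but not in dorsal root. With Psmd5, Psmd9 and Psmd10 counted as cap genes the ratio of the sums was 1.22 (Kif5A) and 1.53 (input) in sciatic nerve and 1.68 (input) in dorsal root. Without the interferon-inducible and tissue-restricted core genes it was 1.20 (Kif5A) and 1.55 (input) in sciatic nerve. Genes at a few counts, such as Psmc3ip and Psma8, are limited by depth.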
